A study of Mus musculus with 2 samples.

Results

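The miRNA genes linked to leukocytes were followed in small RNA libraries of the mouse adrenal gland. They are 8 genes, chosen by name from the 2202 miRNA genes of the count tables: Mir142, Mir142b, Mir150, Mir155, Mir342, Mir223, Mir146 (the gene of miR-146a) and Mir146b. The libraries came from the adrenal glands of 2 female B6CASTF1/J mice aged 25 days, the first cross of a laboratory strain with CAST mice, a strain of wild origin. They form 1 group with no treatment or genetic contrast, 1 library per animal by the sample numbers, although both carry the same donor identifier. The values below therefore describe the level of each gene in both libraries and how far the libraries differed. A difference between them can come from the animal, the dissection, the library preparation or the sequencing, which cannot be told apart.

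A miRNA is cut from a hairpin in its primary transcript and guides an Argonaute protein to messenger RNAs, which it recognises mainly through its seed, bases 2 to 8. Blood-forming cells make a small set of miRNAs at high level. miR-142 is made by nearly all of them, miR-150 by resting lymphocytes, miR-155 by activated lymphocytes and macrophages, and miR-223 by neutrophils, monocytes and platelets. miR-342 is described in lymphocytes, but its host gene Evl is active in many tissues. miR-146a is induced by NF-kB and represses the Toll-like receptor adaptors Traf6 and Irak1, which closes a feedback loop. The adrenal gland holds macrophages among its steroid-making cells, and blood in its vessels adds further leukocytes. Which of these the reads came from was not tested, so the genes are not assigned here to cells that live in the gland.

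Mature sequences of Mir142, Mir142b, Mir155, Mir342, Mir223, Mir146 and Mir146b are shown because they bear on which genes the counts can separate, and miR-150 is named only. They are from RefSeq (GRCm38.p6), are written 5′ to 3′, and carry the seed in capitals.
miR-142a-5p: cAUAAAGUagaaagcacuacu
miR-142a-3p: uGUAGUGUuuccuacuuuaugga
miR-142b: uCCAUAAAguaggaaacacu
miR-155-5p: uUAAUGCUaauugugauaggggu
miR-342-3p: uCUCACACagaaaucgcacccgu
miR-223-3p: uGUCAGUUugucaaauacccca
miR-146a-5p: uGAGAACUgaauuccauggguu
miR-146b-5p: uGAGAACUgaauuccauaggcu
miR-146a-5p and miR-146b-5p have the same seed, and none of the other 6 sequences shown shared its seed with another mature mouse miRNA of that table. The seed of miR-150-5p was not compared. The 5p sequences of the miR-146 genes are identical over their first 17 bases and differ at 2 of 22 positions, G18A and U21C, counted from the 5′ end of miR-146a-5p. miR-142b is the reverse complement of bases 4 to 23 of miR-142a-3p, a stretch of 20 bases, because its gene lies on the other strand of the same hairpin. In the sense direction, the first 10 bases of miR-142a-5p recur as bases 3 to 12 of miR-142b. The tables count reads per gene and do not separate the 5p arm from the 3p arm.

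In mm10 with the GENCODE M21 annotation, Mir142 lies at chr11:87756864-87756927 on the plus strand, in an intron of the long noncoding RNA gene Mir142hg. Mir142b lies at chr11:87756841-87756955 on the minus strand and covers all 64 bases of Mir142. Mir150 lies at chr7:45121757-45121821 on the plus strand, within no other annotated gene. Mir155 lies at chr16:84714140-84714204 on the plus strand, in an exon of its long noncoding host gene Mir155hg. Mir342 lies at chr12:108658620-108658718 on the plus strand, in an intron of Evl, which codes for a regulator of actin filaments. Mir223 lies at chrX:96242817-96242926 on the plus strand, in an exon of the noncoding gene F630028O10Rik. Mir146 lies at chr11:43374397-43374461 on the minus strand, within no other annotated gene, and Mir146b at chr19:46342762-46342870 on the plus strand, in an intron of Mfsd13a. The members thus lie on 6 chromosomes, and the Mir142 pair alone shares a locus.

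Library 2 held 3912280 reads on the strand of a miRNA gene, of 11132685 reads in all, and library 1 held 2244073 of 7938596. Levels are given as CPM, the usual normalised read count, with these miRNA reads of each library as its total. The annotated mature sequences of the members are 20 to 23 bases long, so levels of different miRNAs were compared without a correction for length. How efficiently each sequence was cloned was not tested. No gene count includes multimapped reads, which made up 27.5% of library 2 and 28.4% of library 1. Of the members, Mir146 and Mir146b alone shared a stretch of 20 bases or more with a miRNA gene at another position, 21 bases with each other. Both libraries hold CAST alleles, whose reads may align less completely to the reference genome.

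The 8 genes together took 0.266% of the miRNA reads of library 2 and 0.364% of those of library 1, 0.315 ± 0.0699% on average (SD, n = 2). Summed, they reached 2656 CPM in library 2 and 3644 CPM in library 1. The largest parts were Mir146, with 1044 and 1518 CPM in libraries 2 and 1, and Mir342, with 699 and 1038 CPM. As the host gene of Mir342 is active in many tissues, the sum does not measure leukocytes alone. The 95% Wilson intervals of the shares were 0.261 to 0.271% in library 2 and 0.357 to 0.372% in library 1, and cover counting error only, since reads copied by PCR are not independent molecules. For scale, Mir126a, the miRNA of endothelial cells, alone reached 121007 CPM in library 2 and 53763 CPM in library 1. In bulk tissue a lower level can mean fewer cells of a type or less RNA per cell, and these cannot be told apart.

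Of the 8 genes, 6 had at least 10 reads in each library, as had 337 of all 2202 genes. By mean level the order was Mir146, Mir342, Mir155, Mir150, Mir142 and Mir223, from rank 68 to rank 204 among all miRNA genes. Mir146 stood above Mir342 in both libraries, and its lower value of 1044 CPM lay just above the higher value of Mir342, 1038 CPM. Mir155 and Mir150 overlapped, and so did Mir150 and Mir142, so the order within this trio was not the same in the libraries. In library 2 Mir142 and Mir155 were level and above Mir150, and in library 1 Mir150 was above Mir155 and Mir155 above Mir142. Mir223 was the lowest of the 6 in both libraries. Mir146b and Mir142b were at or near 0.

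**Figure D1:**
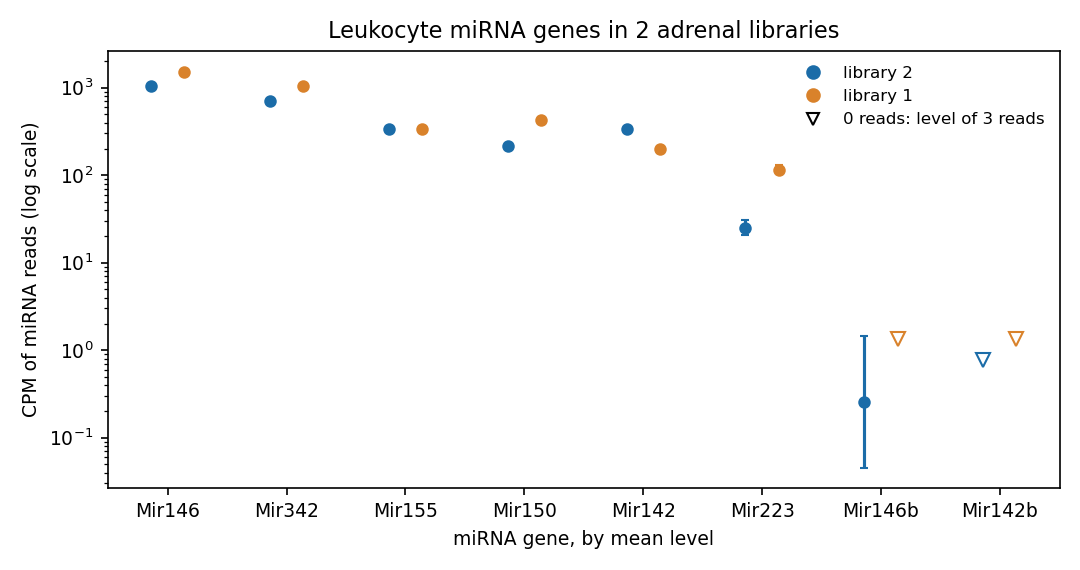
CPM of the 8 leukocyte miRNA genes (log axis), with library 2 and library 1 as separate points. Bars are 95% Wilson intervals of counting error, and open triangles mark genes with 0 reads, drawn at the level of 3 reads; 6 genes lie between 25.0 and 1518 CPM and the points of Mir146b and Mir142b lie below 2 CPM.

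Mir142, the pan-leukocyte gene, had 1319 reads in library 2 and 446 reads in library 1, or 337 CPM in library 2 and 199 CPM in library 1. Its mean was 268 ± 97.9 CPM (SD, n = 2), rank 119 in library 2 and rank 160 in library 1. It was 1.80-fold higher in library 2 (log2 ratio 0.85, 95% interval 0.69 to 1.01; exact binomial test, adjusted p = 2.36e-28). Log2 ratios are library 2 over library 1, and the test compares these libraries by counting error. Log2 ratios and folds between the libraries use effective library sizes (TMM), whereas CPM use the plain totals. Plain totals shift every log2 ratio by -0.09, so a ratio taken from the CPM differs slightly from the one given. With this scaling it was the only member called higher in library 2, as were 29.4% of the 411 genes tested.

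Mir142 could be read from the stranded counts alone. Which column holds which strand was inferred from the layout and totals of the tables, which have no header. In the unstranded column Mir142 and Mir142b both had 0 reads, in library 2 and in library 1. On the strand of Mir142 there were 1319 reads in library 2 and 446 in library 1, and the same numbers appeared for Mir142b on its other strand. On its own strand Mir142b had 0 reads in both libraries, a limit of 0.767 CPM in library 2 and 1.34 CPM in library 1 if a count of 0 allows for 3 reads. Against 3 reads per library, Mir142 was at least 440-fold higher than Mir142b in library 2 and at least 149-fold higher in library 1. At the other members the columns hardly differed: Mir150 had 1 read on its other strand in library 1, and Mir155, Mir342, Mir223, Mir146 and Mir146b had 0 there in both libraries.

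**Figure D2:**
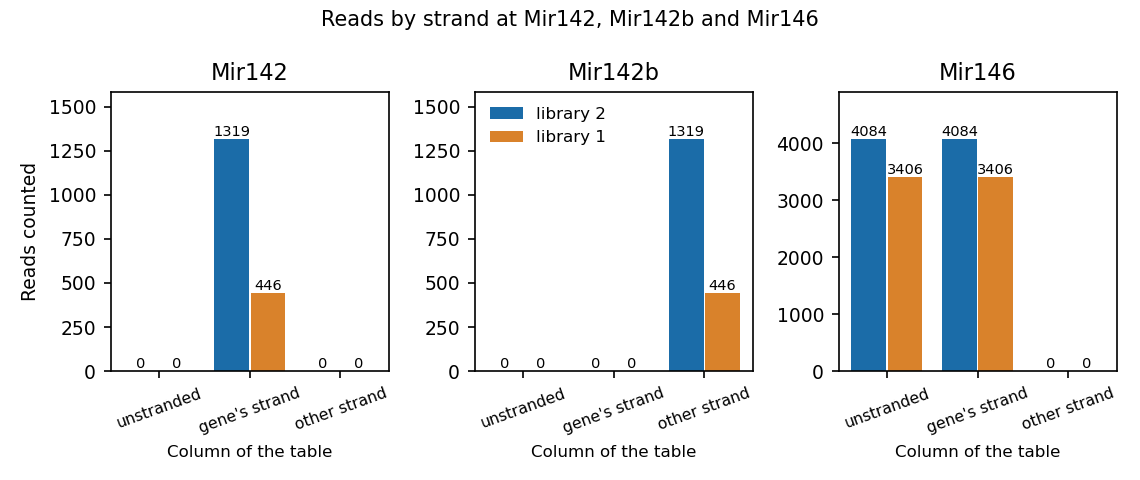
Reads counted at Mir142, Mir142b and Mir146 in the unstranded column, on the strand of the gene and on the other strand, with library 2 left of library 1. The reads of Mir142 (1319 and 446) appear only on its own strand and again as other-strand reads of Mir142b, whereas Mir146 has the same 4084 and 3406 reads with and without strand.

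Of the lymphoid genes, Mir150 and Mir342 were lower in library 2 and Mir155 was not called. Mir150, which represses the transcription factor Myb in maturing lymphocytes, had 842 reads in library 2 and 971 in library 1. These are 215 CPM in library 2 and 433 CPM in library 1, with a mean of 324 ± 154 CPM (SD, n = 2). Despite the deeper sequencing of library 2, its read count there was the smaller. Its log2 ratio was -0.92 (95% interval -1.06 to -0.79; exact binomial test, adjusted p = 5.38e-41). Mir342 had 2735 reads in library 2 and 2330 in library 1, or 699 CPM in library 2 and 1038 CPM in library 1, with a mean of 869 ± 240 CPM (SD, n = 2). Its log2 ratio was -0.48 (95% interval -0.56 to -0.40; exact binomial test, adjusted p = 1.31e-31).

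Mir155, which targets the signalling inhibitors Socs1 and Inpp5d in activated immune cells, was almost the same in both libraries. It had 1311 reads in library 2 and 765 in library 1, or 335 CPM in library 2 and 341 CPM in library 1, with a mean of 338 ± 4.10 CPM (SD, n = 2) and rank 123 in each library. Its log2 ratio was 0.06 (95% interval -0.07 to 0.19; exact binomial test, adjusted p = 0.459). The sign of this ratio turned with scaling by library size alone, where it was -0.025, and 3 of the 11 alternatives called it higher in library 2, with ratios from 0.14 to 0.29.

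The lymphoid genes therefore differed among themselves. Mir155 had 1.56 times the reads of Mir150 in library 2 (95% exact counting interval 1.43 to 1.70) and 0.788 times in library 1 (0.716 to 0.867). Mir342 had 3.25 times the reads of Mir150 in library 2 (3.01 to 3.51) and 2.40 times in library 1 (2.23 to 2.59). These ratios lie within a library and do not depend on how the libraries are scaled.

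Mir223, the myeloid gene, which restrains the production and activity of neutrophils, had the largest ratio of the members. It had 98 reads in library 2 and 260 in library 1, or 25.0 CPM in library 2 and 116 CPM in library 1. The mean of 70.5 ± 64.2 CPM (SD, n = 2) had an SD almost as large as itself, and the rank was 250 in library 2 and 179 in library 1. It was 4.34-fold lower in library 2 (log2 ratio -2.12, 95% interval -2.47 to -1.78; exact binomial test, adjusted p = 1.07e-39). Of the 411 genes tested, 12 (2.92%), Mir223 among them, had a log2 ratio that far from 0.

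Mir146 was the most abundant member, with 4084 reads in library 2 and 3406 in library 1, or 1044 CPM in library 2 and 1518 CPM in library 1. Its mean was 1281 ± 335 CPM (SD, n = 2), rank 76 in library 2 and rank 64 in library 1. Its log2 ratio was -0.45 (95% interval -0.52 to -0.39; exact binomial test, adjusted p = 1.34e-40), close to that of Mir342. Mir146b, whose 5p sequence has the same seed, had 1 read in library 2 and 0 reads in library 1. Mir146 thus had 4084 reads for each read of Mir146b in library 2 (95% exact counting interval 733 to 161348) and at least 1135 times its reads in library 1, against 3 reads. Reads that end before base 18 of the shared 5p sequence cannot be assigned to either gene, and how many there were was not tested.

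Across the members, the exact binomial test called 5 of 6 genes at an adjusted p of 0.05, with 1 higher and 4 lower in library 2. Of all 411 genes tested, 58.4% were called, 29.4% as higher in library 2 and 29% as lower. Among genes with 100 or more reads in each library 84.3% were called, and of the 5 members in that class 4 were, all but Mir155. With 98 reads in library 2, Mir223 lies outside it. The count of called members is thus near that of well-sequenced genes. With a fold of 1.5 required as well, 3 members passed (Mir142 higher in library 2, Mir150 and Mir223 lower), against 31.4% of all genes, 15.1% higher in library 2 and 16.3% lower. The median log2 ratio of the 6 was -0.47, against -0.07 for all genes tested.

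The binomial test holds no spread between animals, and 2 libraries give no independent estimate of it. In edgeR's exact test with the common dispersion of these libraries, a biological coefficient of variation of 0.387, none of the 6 members passed an adjusted p of 0.05. That of Mir223 was 0.686 and those of the other 5 were 1. At an unadjusted p under 0.05 this exact test called Mir223 alone (p = 0.0131), against 2.92% of all genes tested, and 1.22% of all genes passed after adjustment. That dispersion was estimated from the differences between the same libraries, so most genes had to miss the threshold, and the result says nothing for or against a difference in a member.

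**Figure D3:**
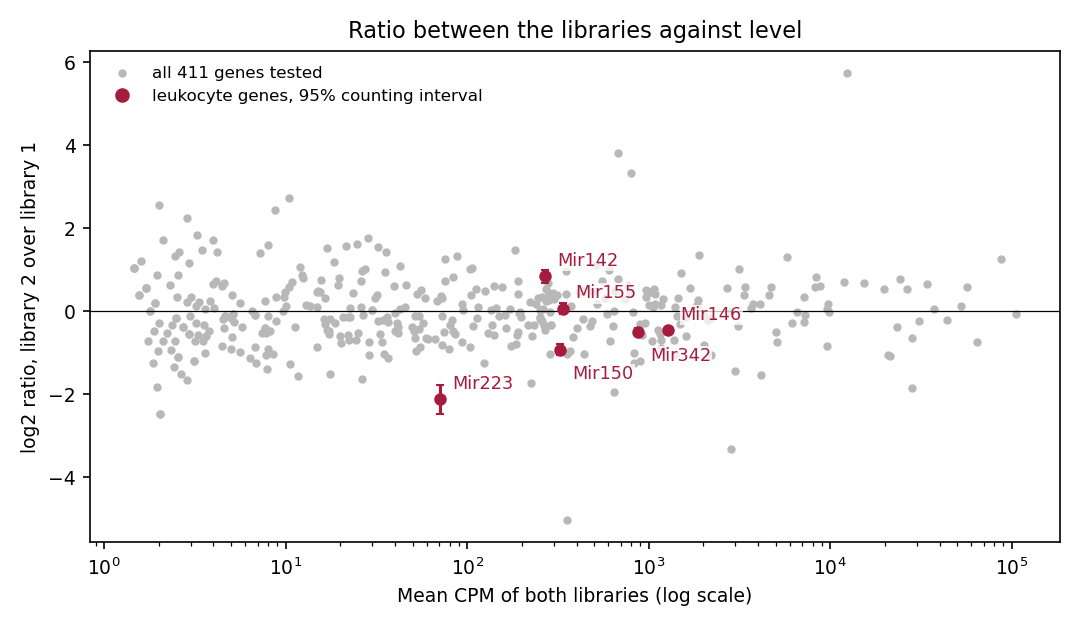
Log2 ratio of library 2 over library 1 against the mean CPM of both libraries (log axis) for the 411 genes tested, in grey, and the 6 tested leukocyte genes, in red with 95% counting intervals. Mir142 lies above 0, Mir155 near 0 and Mir146, Mir342 and Mir150 below it, all inside the grey cloud, while Mir223 at -2.12 lies at its lower edge.

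The balance between the pan-leukocyte, lymphoid and myeloid genes was compared through ratios of their reads within each library. Of the reads of all 8 genes, the lymphoid genes took 47.0% in library 2 and 49.7% in library 1, and the miR-146 genes 39.3% in library 2 and 41.6% in library 1. Mir142 took 12.7% in library 2 (95% Wilson interval 12.1 to 13.3%) and 5.45% in library 1 (4.98 to 5.97%). Mir223 took 0.943% in library 2 (0.775 to 1.15%) and 3.18% in library 1 (2.82 to 3.58%). The parts of the lymphoid and miR-146 genes were slightly smaller in library 2, with Wilson intervals that did not overlap. These were 46.1 to 48.0% in library 2 and 48.6 to 50.8% in library 1 for the lymphoid genes. For the miR-146 genes they were 38.4 to 40.3% in library 2 and 40.6 to 42.7% in library 1. That of Mir142 was larger in library 2 and that of Mir223 smaller.

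Lymphoid reads were 49.9 times the Mir223 reads in library 2 and 15.6 times in library 1, a log2 ratio of ratios of 1.67 (95% Wald interval 1.33 to 2.01). Mir142 reads were 13.5 times the Mir223 reads in library 2 and 1.72 times in library 1 (log2 ratio of ratios 2.97, interval 2.60 to 3.34). This was the widest of the 6 comparisons between groups. Lymphoid reads were 3.71 times the Mir142 reads in library 2 and 9.12 times in library 1 (log2 ratio of ratios -1.30, interval -1.46 to -1.13). Without Mir342 they were 1.63 times in library 2 and 3.89 times in library 1 (log2 ratio of ratios -1.25). The miR-146 reads were 41.7 times the Mir223 reads in library 2 and 13.1 times in library 1, and 3.10 times the Mir142 reads in library 2 and 7.64 times in library 1.

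Lymphoid over miR-146 reads was 1.20 in library 2 and 1.19 in library 1, with a log2 ratio of ratios of 0.003 and an interval from -0.09 to 0.09. Without Mir155, which activated macrophages also make, it was 0.876 in library 2 and 0.969 in library 1, a log2 ratio of ratios of -0.15. Without Mir342 it was 0.527 in library 2 and 0.510 in library 1, a log2 ratio of ratios of 0.05. The level of this ratio thus rests largely on Mir342. All intervals of this kind cover counting error only.

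**Figure D4:**
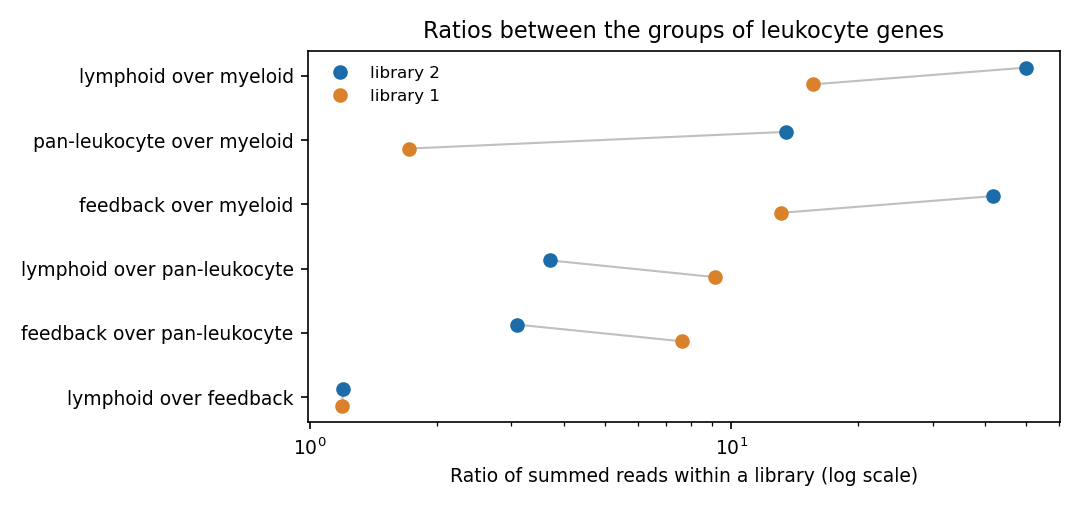
Ratios of summed reads between groups of leukocyte genes within each library (log axis), for pan-leukocyte (Mir142, Mir142b), lymphoid (Mir150, Mir155, Mir342), myeloid (Mir223) and feedback (Mir146, Mir146b) genes. Lymphoid over feedback is 1.20 in library 2 and 1.19 in library 1, and pan-leukocyte over myeloid differs most, with 13.5 in library 2 and 1.72 in library 1.

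Markers of other cells also moved between the libraries. The red cell genes Mir451a, Mir144 and Mir486 summed to 25715 CPM in library 2 and 680 CPM in library 1. Mir451a, which drives red cell maturation, had 24242 CPM in library 2 and 480 CPM in library 1, and Mir144 of the same transcript 1451 CPM in library 2 and 152 CPM in library 1. Mir486 went the other way, with 22.0 CPM (86 reads) in library 2 and 47.7 CPM (107 reads) in library 1. Mir486 overlaps the miRNA gene Mir3107, as Mir451a overlaps Mir451b and Mir126a overlaps Mir126b. On the strand of the genes, 0 reads of either library were counted as ambiguous between overlapping genes. Whether reads at these loci were lost as multimapped was not tested. The counts of Mir486, Mir451a and Mir126a, and the direction of Mir486, are uncertain to that extent. Mir223, Mir150, Mir342 and Mir146 were lower in the library in which Mir451a was high, as were 29% of all genes tested. Mir126a was 2.39-fold higher in library 2, and Mir143 of smooth muscle and fibroblasts 1.58-fold, whereas Mir145a had 789 CPM in library 2 and 847 CPM in library 1.

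Mir122, the hepatocyte miRNA, had 491 CPM in library 2 and 5185 CPM in library 1, the same direction as Mir223, Mir150, Mir342 and Mir146. Of the endocrine and chromaffin genes, Mir375 had 36561 CPM in library 2 and 37574 CPM in library 1, and Mir7b 5543 CPM in library 2 and 3921 CPM in library 1. Mir7-1 had 335 CPM in library 2 and 262 CPM in library 1, and Mir7-2 104 CPM in library 2 and 45.9 CPM in library 1. All 4 were called higher in library 2, as were 29.4% of all genes tested. For Mir375 the log2 ratio was only 0.05 (exact binomial test, adjusted p = 3.59e-13). Its sign rests on the scaling, as its CPM was lower in library 2. Mir7-1 and Mir7-2 share a stretch of 20 bases or more, so their counts are uncertain. The part of these cell types in the differences of the leukocyte genes was not tested.

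Other genes with a described role in leukocytes or their progenitors were also spread over both directions. Of 17 listed genes 16 were matched by name and 15 tested, with 6 higher in library 2, 5 lower and 4 not called. Of all 411 genes tested, 58.4% were called. The median log2 ratio of the 15 was 0.32. The name without a match was Mir18a. A gene named Mir18 was tested, with a log2 ratio of 0.30 and a mean of 300 CPM, but is not in these counts. The most abundant were Mir21a, induced in many activated cells, with 13002 CPM in library 2 and 28487 CPM in library 1, and Mir17, whose cluster supports lymphocyte development, with 3973 CPM in library 2 and 2810 CPM in library 1. Mir31 had 1915 CPM in library 2 and 2330 CPM in library 1, and Mir20a, of the same cluster as Mir17, 1932 CPM in library 2 and 1082 CPM in library 1. Most of these are made by many cell types. Of the 16, 6 share a stretch of 20 bases or more with a miRNA gene at another position, and their counts are uncertain.

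Nearness in level was measured as the distance between log2(CPM + 1) values over the 2 libraries, a description that rests on 2 values per gene. Mir142 lay nearest to Mir30b (distance 0.15) and Mir467e (0.23), and Mir150 to Mir299a (0.17) and Mir501 (0.26). Mir155 lay nearest to Mir25 (0.20) and Mir369 (0.26), Mir342 to Mir92-1 (0.12) and Mir409 (0.15), and Mir146 to Mir615 (0.19) and Mir15b (0.24). Mir223 had no close neighbour, with Gm49347 at 0.83 and Mir1198 at 0.88. Mir467e shares a stretch of 20 bases or more with 16 miRNA genes at other positions and Mir92-1 with Mir92-2, so their counts are uncertain. No member was among the 2 nearest genes of another member.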

How the data were processed

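Per the labels, small RNA of adrenal glands was sequenced and mapped to mm10. GENCODE M21 is named in the text that accompanies the deposited tables. The authors deposited raw read counts per miRNA gene, 1 table per library, with 3 columns and no header. From their layout and values, these were read as an unstranded column and 2 stranded columns. No aligner, counter or trimming step is stated there. The strand of the genes was taken as the stranded column with the larger total. Library sizes omit the rows without a gene name. Among these, unmapped reads were 27.8% (library 2) and 33.8% (library 1) of all reads, multimapped reads 27.5% (library 2) and 28.4% (library 1), and reads on no miRNA gene 9.53% (library 2) and 9.57% (library 1).

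With 1 group there is no coefficient for a quasi-likelihood test. Genes with 10 or more reads summed entered an exact binomial test (two-sided, given the summed reads) that used TMM effective library sizes of edgeR 4.0.16 and Benjamini-Hochberg adjustment over all 411 genes. Log2 ratios have 0.5 read added, with exact 95% intervals. Group ratios have Wald intervals of the log odds ratio and no p. Alternatives used DESeq2 1.42.0 size factors, other scalings, filters, columns and edgeR's exact test (R 4.3.3, Python 3.11.15, scipy 1.17.1). The names printed are the 8 members, the 2 genes nearest each in level, the listed markers of other cells and the 4 most abundant of a list of other leukocyte-linked genes. Members and lists were chosen with earlier results of these data known.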

Additional observations from a re-analysis of the deposited data

Results flagged for a closer look

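Reads on the strand opposite to Mir142b numbered 1319 in library 2 and 446 in library 1, more than the 3 reads that a count of 0 allows. They lie in a column that gives no level in the report and equal the reads of Mir142, which is annotated on that strand of the same hairpin. No other member had more than 1 read on its other strand.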

How the results depend on the processing

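Of 104 alternative values, 89 kept their direction and their side of the threshold or moved by no more than the SD. The 89 include the share and the mean CPM of each member without replicate 1 or without replicate 2. With 2 libraries such a value cannot move by more than the SD, so these alternatives had to count as unchanged and say nothing about stability. The count of called members, 5, fell to 3 with a fold of 1.5 required and to 0 with edgeR's exact test. It was 5 with DESeq2 size factors, 6 with all reads of the library as the scale and 4 in the unstranded column, where Mir142 has no reads. The log2 ratio of Mir155 was -0.025 with library size alone, 0.29 with all reads as the scale, 0.23 with no filter and 0.14 with 100 or more reads required. The last 3 passed the threshold. By construction these settings shift every log2 ratio alike, by -0.09, 0.23, 0.17 and 0.08. The other ranges were 0.76 to 1.08 for Mir142, -1.01 to -0.69 for Mir150, -0.57 to -0.26 for Mir342, -2.20 to -1.89 for Mir223 and -0.54 to -0.23 for Mir146. The members' share of reads ran from 0.266% without replicate 1 to 0.364% without replicate 2, and was 0.0982% of all reads of the library, a larger total. The log2 ratio of ratios of lymphoid over miR-146 reads turned to -0.15 without Mir155. Ratios with Mir142 could not be formed from the unstranded column. No paired analysis was possible because the libraries form a single group. Mir223 rests on 98 reads in library 2, which limits its precision.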
